A study of Mus musculus with 36 samples.

Results

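The electron transport chain and the ATP synthase of mitochondria are assembled from subunits that are encoded mostly by nuclear genes. The nuclear genes examined here were those of the count table whose symbol followed the names of the chain's subunits: Nduf with A, B, C, S or V and a number for complex I, Sdh with a to d for complex II, Uqcr for complex III, Cox4 to Cox8 for complex IV and Atp5 for complex V. The choice used gene names only and no measured value. It gave 81 of the 21442 genes in the table, of which 36 fell in complex I, 4 in complex II, 8 in complex III, 16 in complex IV and 17 in complex V. The name rule put Ndufa4 in complex I, although its protein is known as a subunit of complex IV, and it left out genes with other names, such as Cyc1, Ndufab1 and the 13 genes of the mitochondrial genome, which are given as a separate list.

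Messenger RNA was sequenced in 36 mouse libraries, 3 in each of 12 groups formed by 6 stages and 2 genotypes, wild type or control (WT) and Zfp266 knockout (KO). Zfp266 is a gene for a zinc finger protein, and the comparison between genotypes asks how its loss alters the transcriptome as fibroblasts are reprogrammed to pluripotency. Mouse embryonic fibroblasts (MEFs) were passage 2 cells of strain 129 from E12.5 embryos, with Cas9 under an EF1α promoter and a doxycycline-inducible cassette for Oct4, Sox2, Klf4 and c-Myc. A guide RNA against Zfp266, or a control guide without a target, was brought in by lentivirus, and the cells were harvested after 96 h in MEF medium, without a sort. For days 3, 5 and 7 (D3, D5, D7) the same kind of MEFs, diluted among unmodified 129 MEFs, was transduced in the same way and then given ESC medium with doxycycline at 300 ng/ml and vitamin C at 10 µg/ml, and cells positive for the mOrange reporter of the cassette were sorted. KO libraries of these 4 stages were therefore populations of edited cells and not clones. The iPS groups (induced pluripotent stem cells) held 3 single-cell clones of each genotype, lifted at day 15 and grown with puromycin at 1 µg/ml and without doxycycline. The 3 WT embryonic stem cell (ESC) libraries came from a single parental line, Clone J, whereas the 3 KO ESC libraries were separate clones derived from it, so that in ESCs clone and genotype cannot be told apart. The labels do not say which libraries were prepared together, so preparation and stage cannot be told apart either. The study calls the samples of the reprogramming experiment independent, without saying which step was repeated, and the ESC WT libraries came from 1 line, so p-values measure only the spread between these libraries.

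Complex I (NADH dehydrogenase) and complex II (succinate dehydrogenase, which is also an enzyme of the citric acid cycle) pass electrons to ubiquinone, complex III passes them on to cytochrome c, and complex IV (cytochrome c oxidase) reduces oxygen. Complexes I, III and IV pump protons, and complex V uses the gradient to make ATP. Somatic cells rely largely on this oxidative route, pluripotent stem cells rely more on glycolysis, and several complex IV subunits exist as isoforms from separate genes that differ between tissues.

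Total counts per library ranged from 19224103 to 39610939, and the 81 members took 0.736% to 1.07% of them. Levels are normalised counts, that is, counts divided by a size factor for the library, and levels of different genes are compared only per kilobase of transcript. The mRNA of Zfp266 itself was at 2949 ± 136 normalised counts (SD, n = 3) in MEF WT and 3200.0 ± 114 in MEF KO, and in the KO it was higher at D3 (log2FC 0.32, FDR 0.00883) and lower in iPS cells (log2FC -0.39, FDR 9.95e-06). A guide RNA edit can leave the transcript in place, so this level is a weak check of the genotype. The study itself estimated that the guide caused mostly out-of-frame insertions and deletions in the MEFs. It also genotyped the iPS and ESC clones for the KO. The summed level of 8 fibroblast markers, Col1a1 among them, was 417274 to 433363 in MEF WT and 73 to 86.4 in ESC WT, and that of 8 pluripotency markers, Nanog among them, was 19.7 to 30.8 and 122222 to 130109, so these labels held. In bulk samples, fewer cells of a type and less RNA per cell cannot be told apart.

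In WT cells the complexes took different courses. The summed level per kilobase of complex II was 7918 ± 159.5 (SD, n = 3) in MEFs, 10625 ± 316 at D3, 11362 ± 123 at D5, 9909.8 ± 379 at D7, 7380.0 ± 367 in iPS cells and 7486 ± 244 in ESCs. That of complex III was 26007 ± 137, 36906 ± 977, 38920.5 ± 1679, 32163 ± 714, 26343 ± 2257 and 28028 ± 1571 in the same order. Both sums were highest in the reprogramming cells and lay near the MEF level in pluripotent cells: from MEF to D3 they differed by 34.2% and 41.9%, and from D7 to iPS by -25.5% and -18.1%, with no overlap of libraries. Complex IV went the other way at the last step, from 68832 ± 406 at D7 to 81761 ± 3452 in iPS cells and 89747 ± 5567 in ESCs, against 68249 ± 1081 in MEFs. The ESC sum of complex IV lay 31.5% above the MEF sum and that of complex V 18.9% above it, in each case without overlap of libraries. In complex V, 1 gene, Atp5b, was at 15562 per kilobase in MEFs and 26823 in ESCs, within sums of 98153 and 116717. The sum of complex V thus leans on this gene. Complex I kept to the narrow band of 63032 (iPS) to 75471 (D5).

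**Figure D1:**
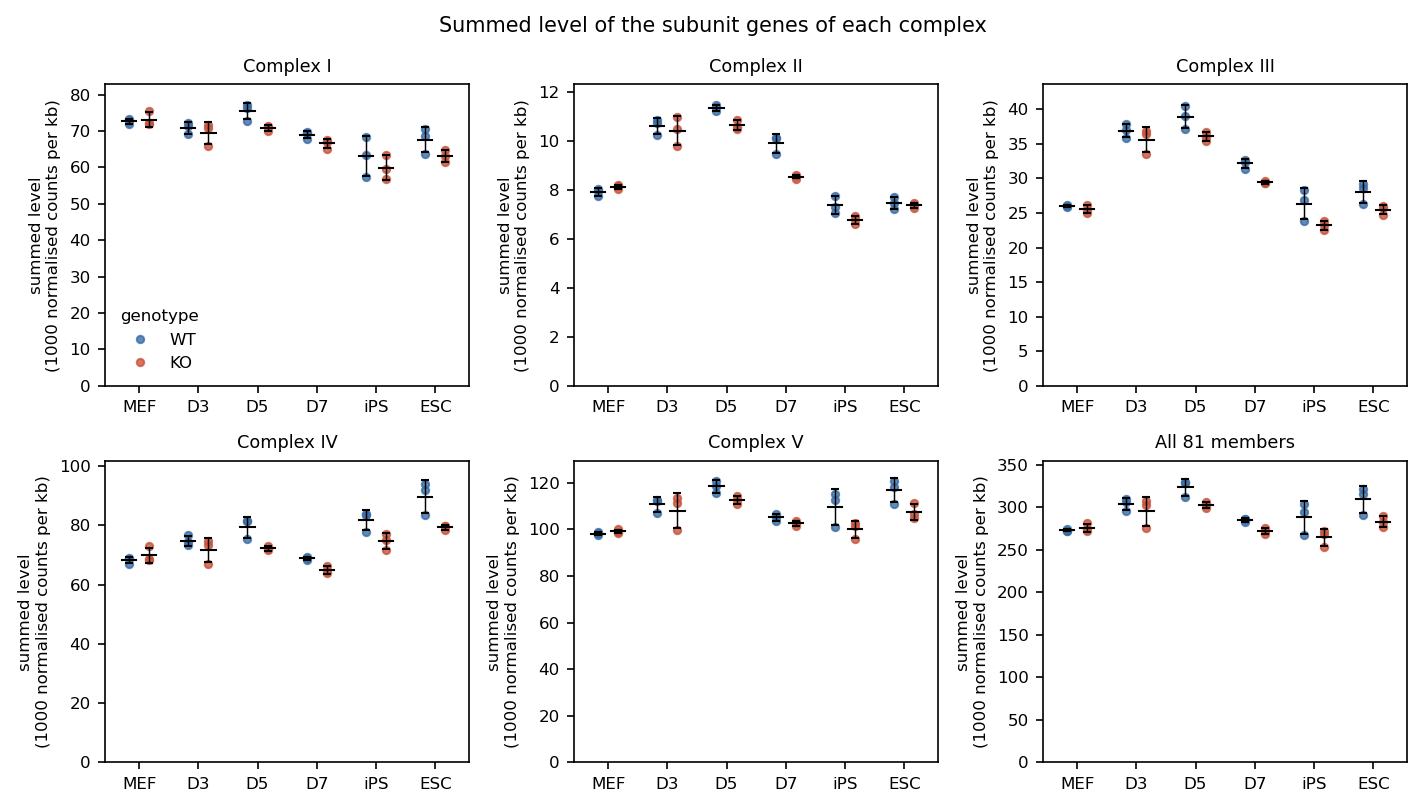
Summed normalised counts per kilobase of the members of each complex (y axis) at each stage (x axis), with a point for each library and the mean and SD of 3 libraries per genotype. The sums of complexes II and III are highest at D3 to D7, and that of complex IV is highest in ESC WT at 89747.

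Most members changed little over the whole course. Between its lowest and its highest WT stage mean, the median member spanned 0.62 on the log2 scale, and 60 of 81 (74.1%) spanned less than 1, beside a median of 1.91 and 22.1% of the 18425 genes with a mean of 10 or more. The narrowest were Atp5l (a subunit of the membrane part of the ATP synthase, 0.24), Ndufs4 (an accessory subunit of complex I, 0.26) and Atp5a1 (the alpha subunit of the catalytic head, 0.27). The 5 members with a range over 2 were Cox7a1 (5.11), Cox7b2 (4.20), Cox4i2 (3.90) and Cox6b2 (3.46), which are the tissue isoforms of complex IV, and Atp5d (2.30), the delta subunit of the ATP synthase stalk. The highest WT mean fell at D5 for 26 members, in ESCs for 21, in MEFs for 21, at D3 for 9, in iPS cells for 3 and at D7 for 1. Per kilobase, Cox4i1 led complex IV at every WT stage (from 16573 in MEFs to 23154 at D5) and Atp5b, the catalytic beta subunit, led complex V (from 15562 in MEFs to 27009 in iPS cells).

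**Figure D2:**
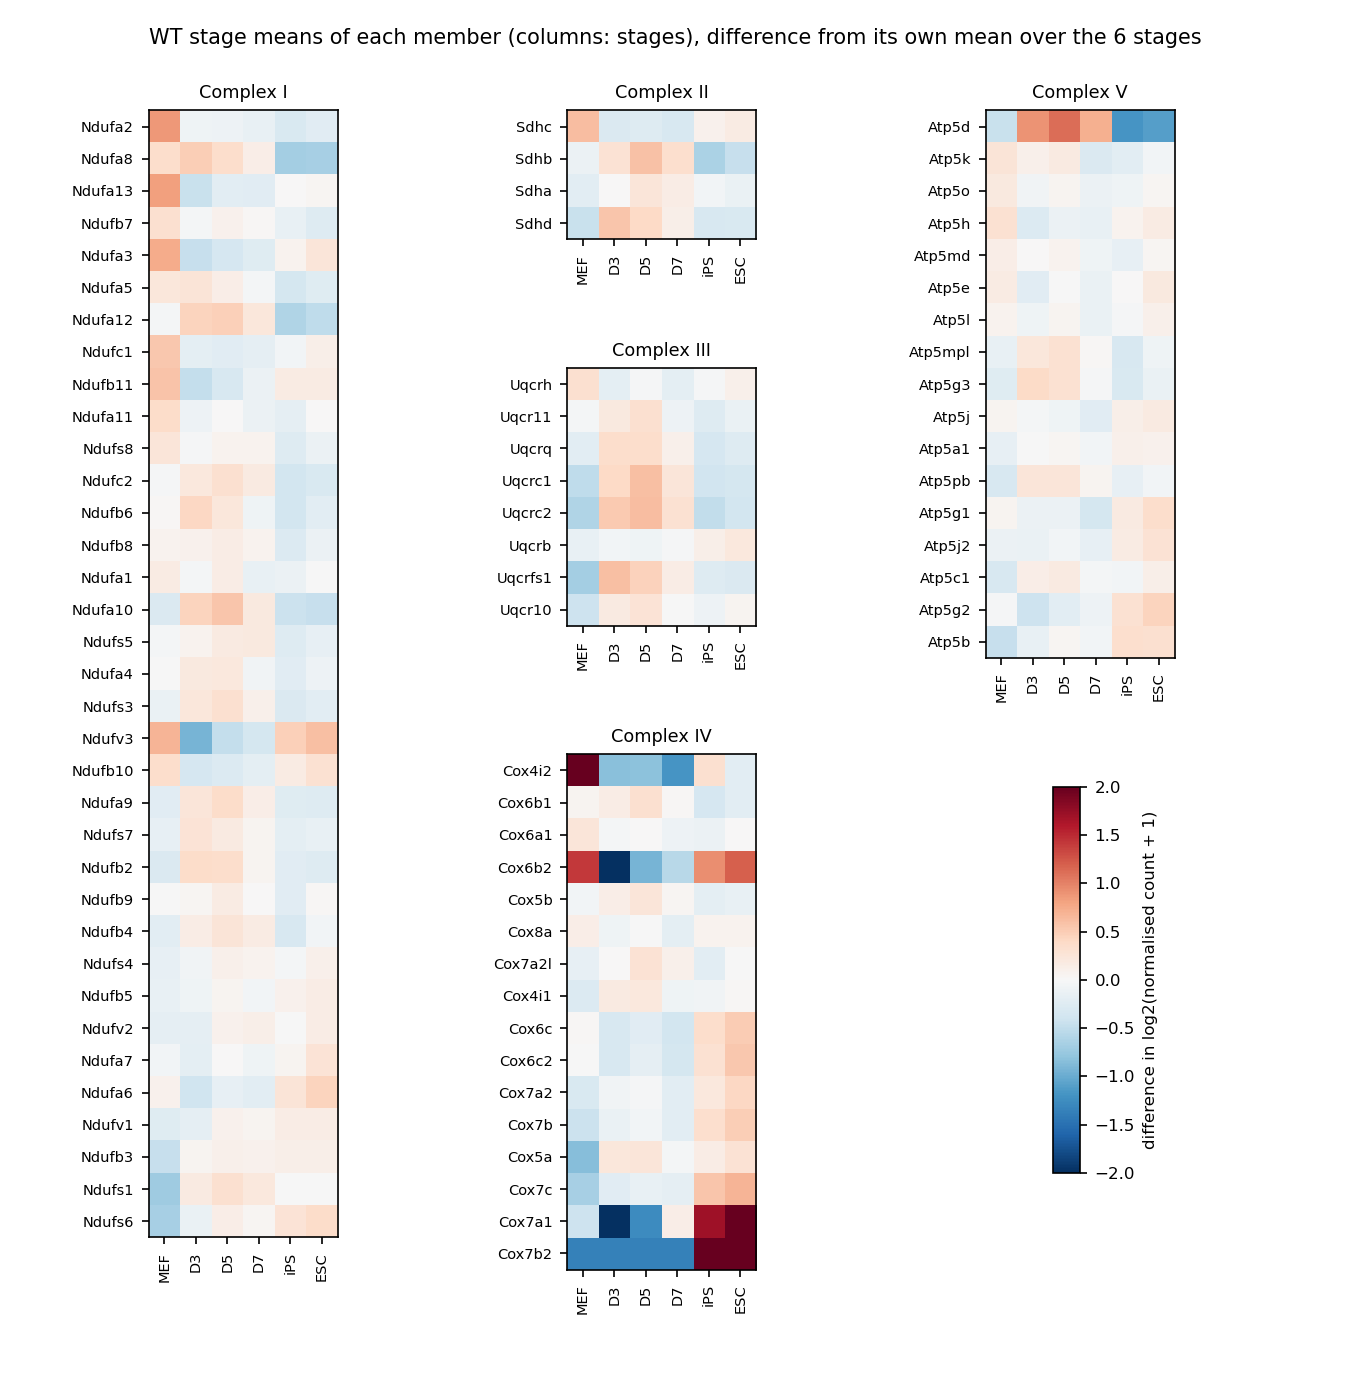
Heat map of the members (rows, by complex; 1 member is not shown) over the 6 WT stages (columns). Colour gives the log2 difference of the stage mean from the member's mean over the stages, within a range of 2 either way. Most members stay pale, and the strongest colours belong to Cox7a1, Cox7b2, Cox4i2, Cox6b2 and Atp5d.

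The step from MEFs to D3 of reprogramming asks what the first days of factor expression change. Medium, vitamin C and sorting differed at this step too, and their parts cannot be told apart from that of the factors. This step called more members than either of the later steps of reprogramming: 35 of 81 members rose and 25 fell at FDR < 0.05 by DESeq2, beside 33.8% and 37.1% of all genes tested. The median log2FC of members was 0.080, beside -0.0054 for all genes. In complex III 5 of 8 rose and 1 fell, with a median of 0.58. In complex I 13 rose and 12 fell, in complex IV 7 and 7, and in complex V 7 and 4; the median and the mean differed in sign in complex I (0.048 and -0.078), complex IV (0.051 and -0.50) and complex V (-0.088 and 0.088).

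In complexes II and III 3 of 4 and 5 of 8 members rose at D3. Uqcrfs1, the Rieske iron-sulphur protein, was at 2402, 2305 and 2397 normalised counts in the 3 MEF WT libraries and 5564, 5989 and 5719 at D3. Every D3 library lay above every MEF library (log2FC 1.28 ± 0.054 (SE), FDR 5.31e-125). Uqcrc2 and Uqcrc1, the core proteins of complex III, rose by 1.12 and 0.92 on the log2 scale (FDR 5.95e-98 and 1.05e-39), and the small subunits Uqcr10 and Uqcrq by 0.60 and 0.57. Uqcrh, the hinge protein between complex III and cytochrome c, fell without overlap (log2FC -0.51, FDR 1.51e-13), and Uqcr11 and Uqcrb were at 0.23 and 0.088, which did not pass. In complex II, Sdhd, a membrane anchor, rose by 0.99, Sdhb, the iron-sulphur subunit, by 0.40 and Sdha, the flavoprotein, by 0.22, while the other anchor, Sdhc, had a log2FC of -0.91 (FDR 1.11e-37). The steepest rise among members was that of Atp5d, from 4139, 4111 and 4277 normalised counts to 10585, 10456 and 10993, again without overlap (log2FC 1.35 ± 0.066 (SE), FDR 2.35e-91). Cox5a, a matrix-side subunit of complex IV, rose by 1.07 and Ndufs1, an iron-sulphur protein of the electron path of complex I, by 0.90 on the log2 scale (FDR 6.64e-41 and 3.14e-48).

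The falls at D3 were led by isoforms of complex IV and by accessory subunits of complex I. Cox6b2, the isoform of the intermembrane-space subunit 6b known from testis, was at 1400.0, 1590.3 and 1399 normalised counts in MEF WT and 151, 110.0 and 135 at D3 (log2FC -3.47 ± 0.20 (SE), FDR 1.06e-66). Cox4i2, the isoform of subunit 4 known from lung, was at 120.0, 68.2 and 80.7 and 8.25, 4.0 and 7.75 (log2FC -3.74, FDR 1.29e-11), the latter from 4 to 9 reads per library. Neither pair of groups overlapped. Ndufv3, an accessory subunit of the flavoprotein part of complex I, changed from 1436 ± 43.7 to 473 ± 50.9 (log2FC -1.60 ± 0.11 (SE), FDR 9.60e-49). Ndufa13 (log2FC -1.28), Ndufa3 (-1.21), Ndufb11 (-1.04) and Ndufa2 (-0.96), accessory subunits of complex I, also fell (FDR 1.15e-52, 4.70e-42, 9.80e-26 and 2.91e-16). The core subunits of complex I did not move as 1 group: Ndufs1, Ndufs3 and Ndufs7 rose (0.90, 0.36 and 0.44), Ndufs8 fell (-0.26), and Ndufv1 and Ndufv2 were at 0.050 and -0.0027, which did not pass.

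Between D3 and D5, 18 members rose and 1 fell, beside 12.4% and 12.7% of all genes. The risers included Sdhb (log2FC 0.30, FDR 4.40e-05), Sdha (0.24), Ndufv1 (0.26), Cox7a2l, a factor that links complexes III and IV in supercomplexes (0.30), and Cox6b2 (1.13). The member that fell was Uqcrfs1 (log2FC -0.14, FDR 0.0281). Between D5 and D7 the direction turned: 1 member rose and 30 fell, beside 13.5% and 10.7% of all genes, and the median member was at -0.15 where the median gene was at 0.019. In complex III 7 of 8 fell, with a median of -0.30; the counts were 9 of 36 in complex I, 2 of 4 in complex II, 5 of 16 in complex IV and 7 of 17 in complex V. Uqcrc1 was at 15186, 14338 and 14983 normalised counts at D5 and 12165, 10909.8 and 11864 at D7, without overlap (log2FC -0.35 ± 0.068 (SE), FDR 7.71e-06). Atp5k and Uqcr11, small subunits of complexes V and III, fell by 0.47 and 0.42 on the log2 scale, and Atp5d and Ndufa10, an accessory subunit of complex I, fell by 0.41 and 0.36. The member that rose was Cox7a1, described with the isoforms. Genes with a mean of 100 or more and a transcript under 1000 bases had a median of -0.047 at this step and longer ones 0.022; the part of transcript length in the members' median was not tested.

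The comparison of iPS WT clones with D7 WT asks what separates established pluripotent cells from cells still expressing the factors under doxycycline. Medium, sorting and cloning differed as well, so their parts cannot be told apart. The comparison split the chain: 27 members rose and 32 fell, beside 35.8% and 37.7% of all genes. In complex IV 11 of 16 rose and 3 fell, with a median of 0.48, whereas in complexes I, II and III 7, 1 and 1 rose and 18, 3 and 4 fell. In complex V 7 rose and 4 fell, and there the median (0.11) and the mean (-0.0072) differed in sign.

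Atp5d had the largest fall, from 9634, 8766 and 9617 normalised counts at D7 to 2473, 2502 and 2585 in iPS WT (log2FC -1.89 ± 0.066 (SE), FDR 7.07e-176). Sdhb went from 3573, 3335 and 3449.8 to 1694, 1814 and 1755 (log2FC -0.98 ± 0.065 (SE), FDR 1.10e-49). Neither pair of groups overlapped. The accessory subunits Ndufa8 and Ndufa12 of complex I fell by 0.82 and 0.82, and Uqcrc2 and Uqcrc1 by 0.79 and 0.62 on the log2 scale. Core subunits of complex I that fell included Ndufs1 (-0.22), Ndufs3 (-0.40), Ndufs7 (-0.25) and Ndufs8 (-0.32). In the other direction, Cox7c (0.74), Cox6c (0.72), Cox7b (0.54) and Cox7a2 (0.41) rose, which are some of the small membrane subunits of complex IV. Ndufv3 rose again (log2FC 0.84, FDR 4.72e-15), and so did Atp5b, from 39805, 38086 and 40594 to 51751, 51921 and 51575 normalised counts without overlap (log2FC 0.39 ± 0.054 (SE), FDR 1.68e-12).

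Between WT ESCs and WT iPS cells no member with an adjusted p passed the test: 0 of 78 members tested were higher and 0 lower in ESCs by DESeq2, beside 1.09% and 2.11% of all genes, with 21 members at an unadjusted p under 0.05 and 0 and 0 calls by edgeR. DESeq2 gave no adjusted p to Cox4i2, Cox7b2 and Cox7a1, which have few reads; of these, Cox7a1 had a log2FC of 0.80 ± 0.24 (SE) without overlap of libraries and an unadjusted p of 7.66e-04 by DESeq2. Without iPS WT clone 2 or 3 or ESC WT library 3, DESeq2 gave 5, 8 and 4 members higher in ESCs. The 95% interval of the fold change lay within 25% either way for 56 members. The median member was at 0.12, beside 0.11 for genes with transcripts under 1000 bases, -0.038 for longer ones and 0.16 for cytosolic ribosomal protein genes; the part of transcript length was not tested. Over the whole course from MEFs to ESCs, 31 members were higher in ESCs and 24 lower, beside 40.0% and 39.4% of all genes. With the trimmed-mean (TMM) scaling of edgeR in place of the size factors, the median of all genes in this comparison lay 0.11 higher on the log2 scale and the counts were 36 and 19. In complex IV 10 were higher and 3 lower, in complex I 9 and 15. Cox7c (1.34), Cox5a (1.14), Ndufs6 (1.04) and Atp5b (0.79) were higher in ESCs, and Ndufa2 (-1.10), Ndufa8 (-1.01), Ndufa13 (-0.78) and Atp5d (-0.65) lower. These 8 differences are each larger than the shift between the scalings. Over the successive WT steps, 6 members passed at none: Ndufb5, Ndufa7, Ndufs4, Uqcrb, Atp5l and Atp5md. The share of all genes that passed at none is not given here, so this count does not set the members apart. Counts of Uqcrb, Atp5l and Atp5md are also uncertain, because 62.8%, 72.2% and 50.9% of their transcripts matched other annotated transcripts.

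The widest changes belonged to isoform pairs of complex IV. Cox7a1 (the isoform of subunit 7a known from heart and skeletal muscle; ENSMUSG00000074218, chromosome 7, 30184144 to 30186078, plus strand, GRCm38) was nearly silent early and rose from D5 on. It had 24.3, 15.1 and 11.7 normalised counts in MEF WT, 1.83, 2.0 and 4.85 at D3, 9.71, 8.26 and 9.37 at D5, 21.3, 32.2 and 22.6 at D7, 89, 56 and 85.4 in iPS WT and 157, 135 and 110.3 in ESC WT. The D3 values rest on 2 to 5 reads per library and those of MEFs on 10 to 14. It passed the test at each step from MEF to iPS, first as a fall (log2FC -2.50, FDR 3.00e-05) and then as rises at D5 (log2FC 1.66, FDR 0.0244), D7 (log2FC 1.48, FDR 0.00126) and iPS (log2FC 1.59, FDR 4.01e-08). Its share of the 7a pair, per kilobase, was 1.66% ± 0.677 in MEF WT, 0.238% ± 0.131 at D3, 2.27% ± 0.553 at D7 and 7.38% ± 0.977 in ESCs, so Cox7a2, the isoform of most tissues, remained the main form throughout. The summed level of 6 skeletal muscle markers was 5939 to 6449.5 in MEF WT, 191 to 426 at D3, 136 to 230.1 at D5, 158 to 373 at D7, 154 to 209.9 in iPS WT and 166 to 189 in ESC WT. Their sum was lower after the step from MEF to D3 at which Cox7a1 fell (3 of 6 genes lower, 1 higher), and from D3 on, while Cox7a1 rose, it stayed between 136 and 426. Their part in its level was not tested. The sequences upstream of these isoforms are shown because the pair differs in the density of CpG dinucleotides there. The 250 bases before the RefSeq start of Cox7a1 (chr7:30183921-30184170, plus strand, GRCm38.p6) hold 4 CpG, 0.244 times the number their base composition gives, and those of Cox7a2 (chr9:79759854-79760103, minus strand) hold 14, 0.751 times that number. The direction was the reverse for Cox7b2, with 9 CpG and a ratio of 0.567, and its partner Cox7b, with 5 and 0.431. In the longer promoter windows described below, the ratio was 0.432 for Cox6b2 and 0.807 for Cox6b1, the same direction as for Cox7a1 and Cox7a2. A lower CpG density in the isoform of fewer tissues was therefore not shared by all pairs. CpG is in capitals, 5′ to 3′:
Cox7a1: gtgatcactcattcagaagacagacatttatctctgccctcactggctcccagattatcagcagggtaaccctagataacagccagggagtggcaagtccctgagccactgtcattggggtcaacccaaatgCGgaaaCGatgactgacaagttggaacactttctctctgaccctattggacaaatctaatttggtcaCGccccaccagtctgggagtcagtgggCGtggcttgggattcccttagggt
Cox7a2: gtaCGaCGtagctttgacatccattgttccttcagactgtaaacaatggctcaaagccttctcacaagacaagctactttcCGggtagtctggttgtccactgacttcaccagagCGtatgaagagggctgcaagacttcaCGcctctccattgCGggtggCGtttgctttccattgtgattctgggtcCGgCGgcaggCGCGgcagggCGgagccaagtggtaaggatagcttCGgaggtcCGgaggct

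Cox7b2, the isoform of subunit 7b known from testis, had 0 reads in all 12 WT libraries from MEF to D7, which allows up to 2.31 to 5.22 normalised counts per library (3 reads, over all 36 libraries, counting error only). It was at 6.91, 14.6 and 19.5 normalised counts in iPS WT, a mean at least 4.43-fold higher than the floor of the D7 libraries (FDR 5.63e-05), and at 24.1, 14.2 and 13.9 in ESC WT, at least 3.33-fold above the floor of the MEF libraries (FDR 6.70e-05). Its partner Cox7b still made up 99% ± 0.290 of the pair in ESCs. In KO iPS clones Cox7b2 was at 147, 44.3 and 12.1, of which 1 clone stood far above the other two, and the difference from WT did not pass (FDR 0.0592).

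Cox6b2 made a dip: its share of the 6b pair was 37.2% ± 0.934 in MEF WT, 4.74% ± 0.629 at D3, 8.78% ± 1.39 at D5, 13.3% ± 0.781 at D7, 34.7% ± 8.49 in iPS WT and 37.9% ± 1.21 in ESC WT. The MEF and ESC shares overlapped in range, and the difference in level between ESCs and MEFs did not pass (log2FC -0.21, FDR 0.293). Cox4i2 stayed under 1% of the subunit 4 pair in every group. Among the 3 genes for subunit c of the ATP synthase ring, which encode the same mature protein, Atp5g3 rose from 42.2% ± 0.776 of the sum in MEF WT to 58.1% ± 0.876 at D3 and was at 37% ± 1.87 in iPS WT, while Atp5g2 went from 37% ± 0.992 to 25.3% ± 1.49 and 42.3% ± 2.91. Atp5g1 held 20.8% ± 1.38, 16.6% ± 0.620 and 20.7% ± 1.26 at these stages. Shares with Atp5g1 and Atp5g2 are uncertain, because over 50% of each transcript matched another annotated transcript at 97% identity over a read length, so that their reads could have been split or dropped in counting. The same holds for Atp5h, Atp5o, Ndufs3, Atp5l, Atp5pb, Uqcrb, Ndufs5, Cox7c, Atp5md and Ndufb2, and Cox6c2, which followed Cox6c at every stage, is annotated as a processed pseudogene.

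**Figure D3:**
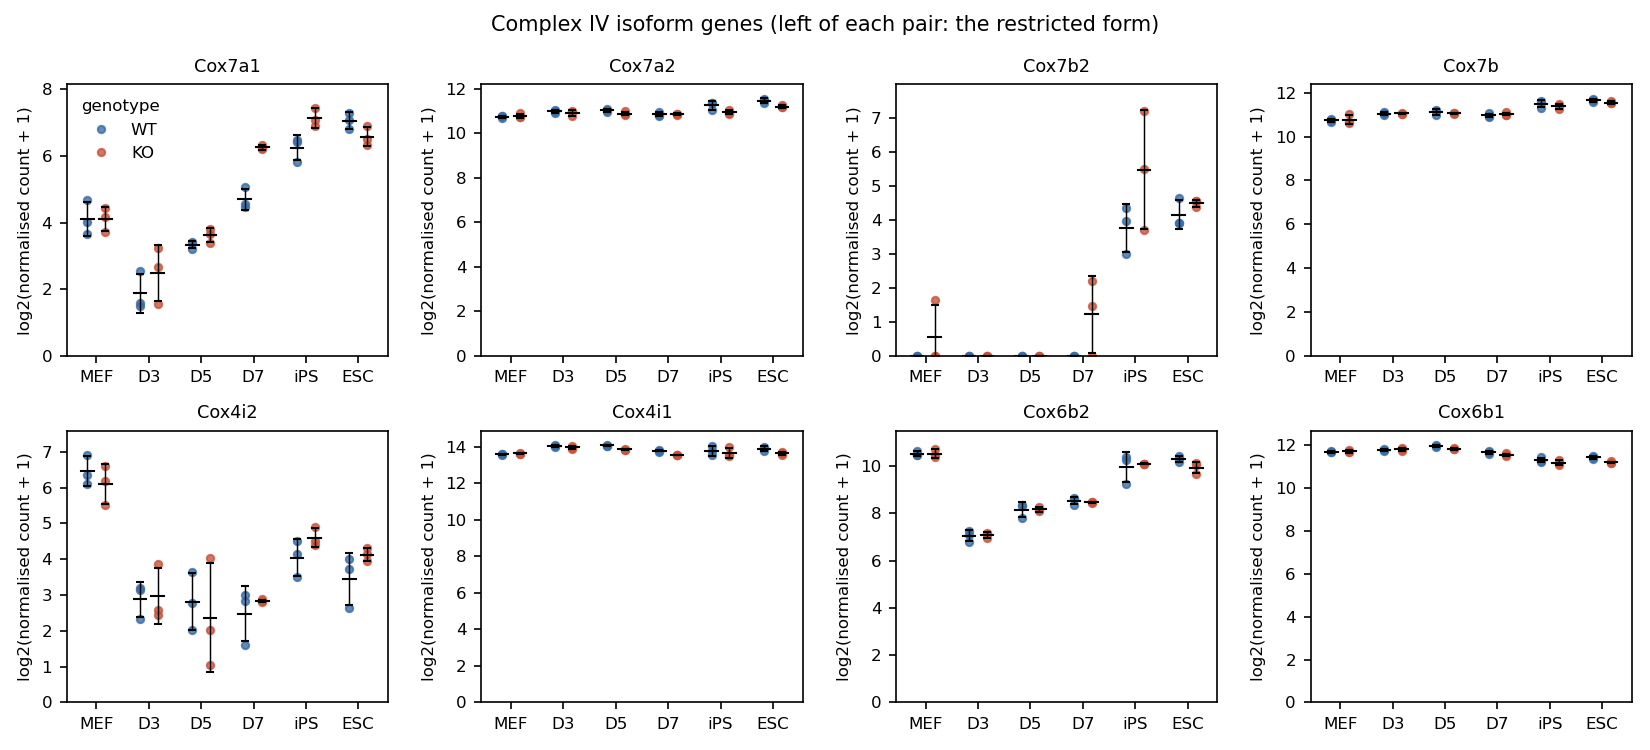
Levels of isoform genes on the log2(normalised count + 1) scale (y axis) by stage (x axis), one panel per gene, with a point per library and the mean of 3 libraries for each genotype. Cox7a1 climbs from D3 to ESC WT (2.89 ± 1.69 to 134 ± 23.2 normalised counts), Cox7b2 appears in pluripotent cells, and Cox6b2 dips at D3.

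Loss of Zfp266 left these genes without a call in MEFs and at D3. In MEFs 0 of 81 members were higher and 0 lower in the KO by DESeq2, beside 0.0285% and 0.0143% of all genes, with 2 at an unadjusted p under 0.05 and 0 by edgeR. At D3 the counts were 0 and 0 of 79, beside 0.374% and 0.119%, with 1 at an unadjusted p under 0.05 and 0 by edgeR. The 95% interval of the fold change lay within 25% either way for 69 members in MEFs and 73 at D3. The sums per kilobase of the KO overlapped those of WT for every complex at both stages. In complex IV at D3 the median (-0.037) and the mean (0.027) differed in sign.

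At D5 0 members were higher and 3 lower in the KO by DESeq2, beside 4.72% and 2.43% of all genes, with 13 at an unadjusted p under 0.05 and 0 and 0 by edgeR. The 3 were Sdhb (log2FC -0.20, FDR 0.0323), Uqcrh (log2FC -0.20, FDR 0.0413), and Ndufa10 (log2FC -0.16, FDR 0.0138). Sdhb was at 4043, 4178 and 4033 normalised counts in WT and 3567, 3532 and 3589.9 in KO, and each KO library lay below each WT library. Small differences in the same direction were frequent: 70 of 81 members had a log2FC below 0. The members' median was -0.088, beside -0.012 for all genes, -0.049 for genes with transcripts under 1000 bases and -0.072 for ribosomal protein genes. The share of all genes below 0 is not given here, though their median lay below 0 as well. The KO sum per kilobase lay below the WT sum without overlap in each complex, with a difference of -6.11% in complex I, -6.19% in II, -7.31% in III, -8.97% in IV and -4.80% in V. Pluripotency markers summed to 2772 to 4149 in D5 KO against 1258 to 1492 in WT (7 of 8 higher) and epithelial markers to 70033 to 72903 against 65815 to 67569 (1 of 6 higher). The part of transcript length and of these markers was not tested. Each of the 3 calls was lost in 3 or more of the 6 fits that left out a library.

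At D7 13 members were lower and 2 higher in the KO, beside 16.1% and 13.3% of all genes, so the share of lower members (16%) was near the background. By edgeR 9 were lower and 2 higher. The lower members were 4 of 36 in complex I, 2 of 4 in complex II, 4 of 8 in complex III, 2 of 16 in complex IV and 1 of 17 in complex V. The median log2FC was -0.15 in complex II and -0.13 in complex III, beside -0.047 for members and -0.045 for all genes, and in complex IV the median (-0.025) and the mean (0.27) differed in sign. Summed per kilobase, the KO lay below WT without overlap, with a difference of -13.7% in complex II, -8.52% in III, -5.64% in IV and -3.51% in I, whereas the sums of complex V overlapped (-2.37%).

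Sdhb (ENSMUSG00000009863, chromosome 4, 140961203 to 140979193, plus strand) had the lowest FDR of the chain at D7, with 3573, 3335 and 3449.8 normalised counts in WT and 2673, 2422 and 2544 in KO. The groups did not overlap (log2FC -0.44 ± 0.064 (SE), FDR 3.75e-10). Ndufa10 (ENSMUSG00000026260, chromosome 1, 92439010 to 92473860, minus strand) was at 3906, 3622 and 3741 in WT and 3021, 3038 and 3023 in KO (log2FC -0.31 ± 0.047 (SE), FDR 1.04e-09), and Atp5d (ENSMUSG00000003072, chromosome 10, 80138632 to 80145818, plus strand) at 9634, 8766 and 9617 and 7150.3, 6887 and 7318 (log2FC -0.39 ± 0.065 (SE), FDR 4.93e-08). For both genes each KO library lay below each WT library. Atp5d shares 68 exon bases with Cbarp on the opposite strand, and whether the strand was used in counting is not given in the sources used here. The other calls with no overlap included Uqcrfs1 (-0.21), Uqcrq, a small subunit near the ubiquinone site of complex III (-0.39), Uqcrc2 (-0.21), Sdhd (-0.24), Ndufa4 (-0.28) and Cox7a2l (-0.24). The remaining calls, at log2FC closer to 0, were Ndufs3 (-0.18) and Ndufs7 (-0.18), core subunits of complex I, Uqcrc1 (-0.18) and Cox5b (-0.17), and all 4 were lost with edgeR. Of the 13 lower members 13 had no overlap of libraries, and the share among all called genes is not given here.

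The members higher in D7 KO were Cox7a1, at 21.3, 32.2 and 22.6 normalised counts in WT and 72.3, 75.3 and 79.9 in KO (log2FC 1.58 ± 0.28 (SE), FDR 4.72e-07), and Uqcrb, the ubiquinone-binding protein of complex III (log2FC 0.24, FDR 0.0272). The share of Cox7a1 in the 7a pair was 2.27% ± 0.553 in WT and 6.45% ± 0.424 in KO. The comparisons of D7 KO and of iPS WT share the D7 WT libraries, so levels are only set side by side, for the 3 lower members with the lowest FDR and for the higher member Cox7a1. Sdhb was at 3453 ± 119 in D7 WT, 2547 ± 125 in D7 KO and 1754 ± 59.6 in iPS WT, Ndufa10 at 3756 ± 143, 3027 ± 8.91 and 2430.3 ± 142, Atp5d at 9339 ± 496, 7118 ± 217 and 2519.9 ± 58, and Cox7a1 at 25.4 ± 5.96, 75.8 ± 3.82 and 76.8 ± 18.1. Ndufa4, which was also lower, had its lowest mean of these groups in D7 KO, with 3150.2 ± 182, 2594 ± 90.7 and 2823 ± 419. The D7 KO libraries also had higher pluripotency markers, summed to 25839 to 33905 against 5591 to 9715 in WT (8 of 8 genes higher), and lower fibroblast markers, summed to 6978 to 21388 against 22092 to 34046 (4 of 8 genes lower, none higher, none at 0). Epithelial markers were at 55231 to 57403 and 55025 to 59956 (2 of 6 higher), and skeletal muscle markers at 137 to 159.8 and 158 to 373 (1 of 6 lower). Blood and endothelial markers were higher without overlap in sum, at 1012 to 1158 against 472 to 538, where 1 of 5 genes passed, Pecam1 (177 ± 35 in WT and 603 ± 79.2 in KO). Their sum also differed between WT stages, with means of 182 in MEFs, 1471 in iPS cells and 1648 in ESCs. The part of these differences in cell state in the result was not tested.

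**Figure D4:**
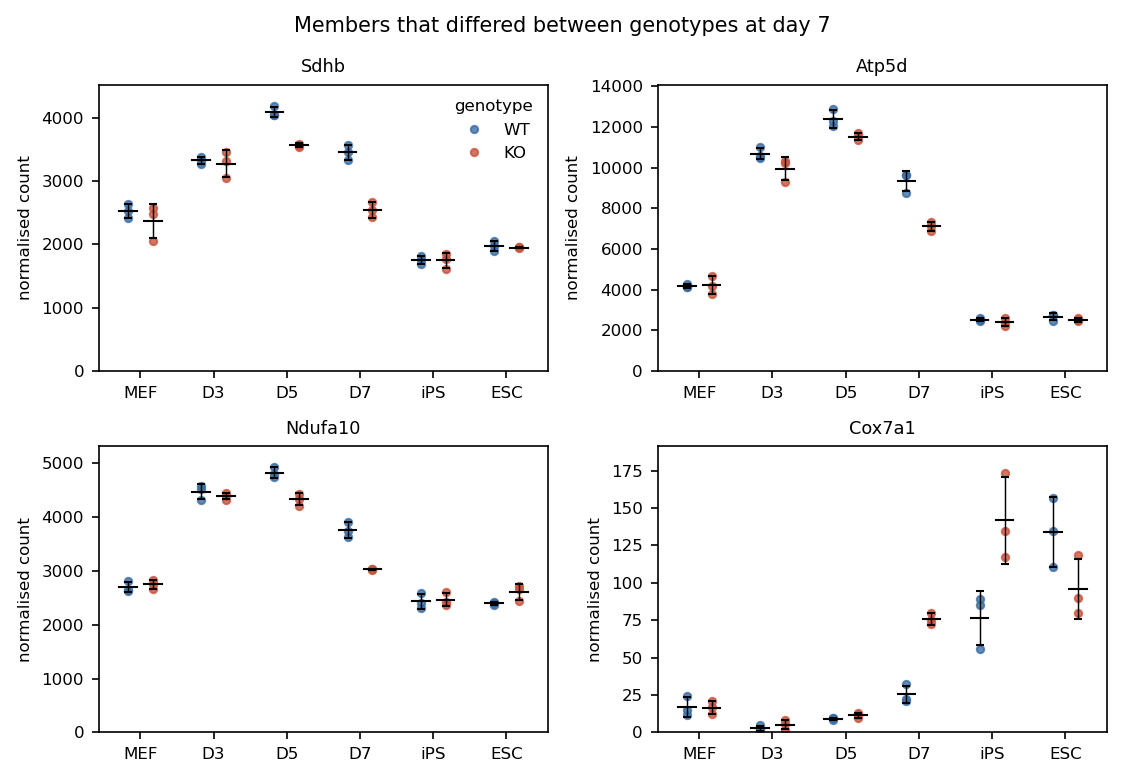
Normalised counts (y axis) of Sdhb, Atp5d, Ndufa10 and Cox7a1 by stage (x axis) in WT and KO, with a point per library and the mean of 3 libraries. At D7 the 3 KO libraries of Sdhb, Atp5d and Ndufa10 lie below the 3 WT libraries, and those of Cox7a1 lie above them (72.3, 75.3 and 79.9 against 21.3, 32.2 and 22.6).

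In iPS clones 21 members were lower and 1 higher in the KO, beside 6.63% and 9.72% of all genes, and edgeR gave 21 and 2. These calls rest on the spread estimated over all 36 libraries: with the 6 iPS libraries alone, 0 members were lower and 0 higher, and without WT clone 2 DESeq2 gave 8 lower. The lower members were 7 of 17 in complex V, 5 of 36 in complex I, 4 of 8 in complex III, 4 of 16 in complex IV and 1 of 4 in complex II. Atp5l was at 2156, 3069 and 2669 normalised counts in WT clones and 2045, 1945 and 1688 in KO clones (log2FC -0.48 ± 0.093 (SE), FDR 1.96e-05), and Atp5a1 at 29833, 33234 and 32347 and 24807, 26181 and 28594 (log2FC -0.26 ± 0.053 (SE), FDR 4.23e-05). Neither gene had overlapping groups. Sdhd (-0.35), Uqcrh (-0.32) and Ndufs6, a zinc-binding subunit of complex I (-0.36), were the next by FDR without overlap. The others were, in complex I Ndufb2 (-0.41), Ndufa4 (-0.27), Ndufa13 (-0.24), Ndufc2 (-0.17); in complex III Uqcr11 (-0.37), Uqcrq (-0.29), Uqcrfs1 (-0.20); in complex IV Cox7a2 (-0.32), Cox6c2 (-0.30), Cox6c (-0.30), Cox5b (-0.22); in complex V Atp5e (-0.39), Atp5k (-0.38), Atp5j (-0.31), Atp5j2 (-0.29), Atp5g3 (-0.21). Of the 21, 12 had no overlap of clones, again without the share among all called genes. The higher member was again Cox7a1, at 89, 56 and 85.4 in WT and 174, 135 and 117 in KO (log2FC 0.89 ± 0.24 (SE), FDR 0.0029). In complex IV the median (-0.10) and the mean (0.12) differed in sign, and the members' median was -0.091 beside 0.024 for all genes and -0.021 for genes with short transcripts. In KO clones the summed markers listed for other cell types were higher without overlap: skeletal muscle at 236 to 334 against 154 to 209.9 (2 of 6 higher; Tnnt3 at 0 in WT), blood and endothelium at 2434 to 3651 against 874 to 1833 (2 of 5 higher, Pecam1 and Cdh5; Cdh5 at 0 in WT and Adgre1 in both) and fibroblasts at 112 to 198 against 77.5 to 107 (1 of 8 higher; Prrx1 and Postn at 0 in WT). The blood and endothelial sum was itself higher in WT iPS cells (mean 1471) and WT ESCs (1648) than in WT MEFs (182). Whether this sum marks such cells here was not tested. The part of these markers in the result was not tested.

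In ESCs 16 members were lower and 1 higher in the KO clones, beside 4.29% and 5.82% of all genes, while edgeR gave 5 and 1. Without WT library 1 or 2 or KO clone 2 or 3, DESeq2 gave 4, 3, 4 and 6 lower members. Uqcrh was at 2738, 2675 and 2315 normalised counts in the parental line and 2089, 2083 and 2037 in the KO clones (log2FC -0.32 ± 0.067 (SE), FDR 1.83e-04). Atp5mpl, a small protein bound to the ATP synthase, was at 1231, 1122 and 967 and 785, 755 and 802 (log2FC -0.50 ± 0.11 (SE), FDR 3.88e-04). Cox6b1 (log2FC -0.24, FDR 0.00317) and Ndufs6 (log2FC -0.27, FDR 0.00753) were also lower without overlap. The others were, in complex I Ndufb6 (-0.30), Ndufa4 (-0.22); in complex II Sdhd (-0.21), Sdhc (-0.21); in complex III Uqcr11 (-0.39), Uqcrb (-0.25); in complex IV Cox7a2 (-0.26); in complex V Atp5j (-0.28), Atp5l (-0.28), Atp5j2 (-0.23), Atp5g3 (-0.22), Atp5a1 (-0.18). Of the 16, 14 had no overlap of libraries, again without the share among all called genes. The member that was higher was Sdha, at 7066, 7304 and 7619 and 8576, 8504 and 8088 (log2FC 0.19 ± 0.049 (SE), FDR 0.00267). The members' median of -0.12 stood beside 0 for all genes, -0.086 for genes with transcripts under 1000 bases, 0.024 for longer ones and -0.086 for cytosolic ribosomal protein genes; the part of transcript length was not tested. Summed per kilobase, the KO lay below WT without overlap in complex III (-9.12%) and complex IV (-11.6%) in ESCs, and in complex II (-7.95%), III (-11.8%) and IV (-8.73%) in iPS clones. In KO ESCs blood and endothelial markers summed to 2481 to 3212 against 1546 to 1757 (2 of 5 higher, Pecam1 and Cd68; the others had no adjusted p, with Ptprc at 0 in WT and Adgre1 in both), fibroblast markers to 91.5 to 133 against 73 to 86.4 (1 of 8 higher; Col3a1, Twist2 and Postn at 0 in WT), pluripotency markers to 136885 to 139390.0 against 122222 to 130109 (0 of 8 called) and skeletal muscle markers to 174 to 215 against 166 to 189. The first 3 sums did not overlap, and their part in the result was not tested.

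The members lower in KO iPS clones and in KO ESCs overlapped in 11 genes, 52.4% of the iPS list and 68.8% of the ESC list: Atp5a1, Atp5g3, Atp5j, Atp5j2, Atp5l, Cox7a2, Ndufa4, Ndufs6, Sdhd, Uqcr11 and Uqcrh. Over all genes the lists shared 25.4% of the iPS list and 48.9% of the ESC list. These comparisons share no library, and with the 6 iPS libraries alone the iPS list of members is empty. Of the 81 members, 34 (42%) were lower in at least 1 of the 6 KO comparisons and 16 (19.8%) in at least 2, beside 22.7% and 4.79% of all genes tested, and 3 (3.70%) were higher in at least 1, beside 23.6%. In none of them passed 45 (55.6%), beside 57.3%. Apart from Cox7a1, no member called in a KO comparison differed by more than 1 on the log2 scale.

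**Figure D5:**
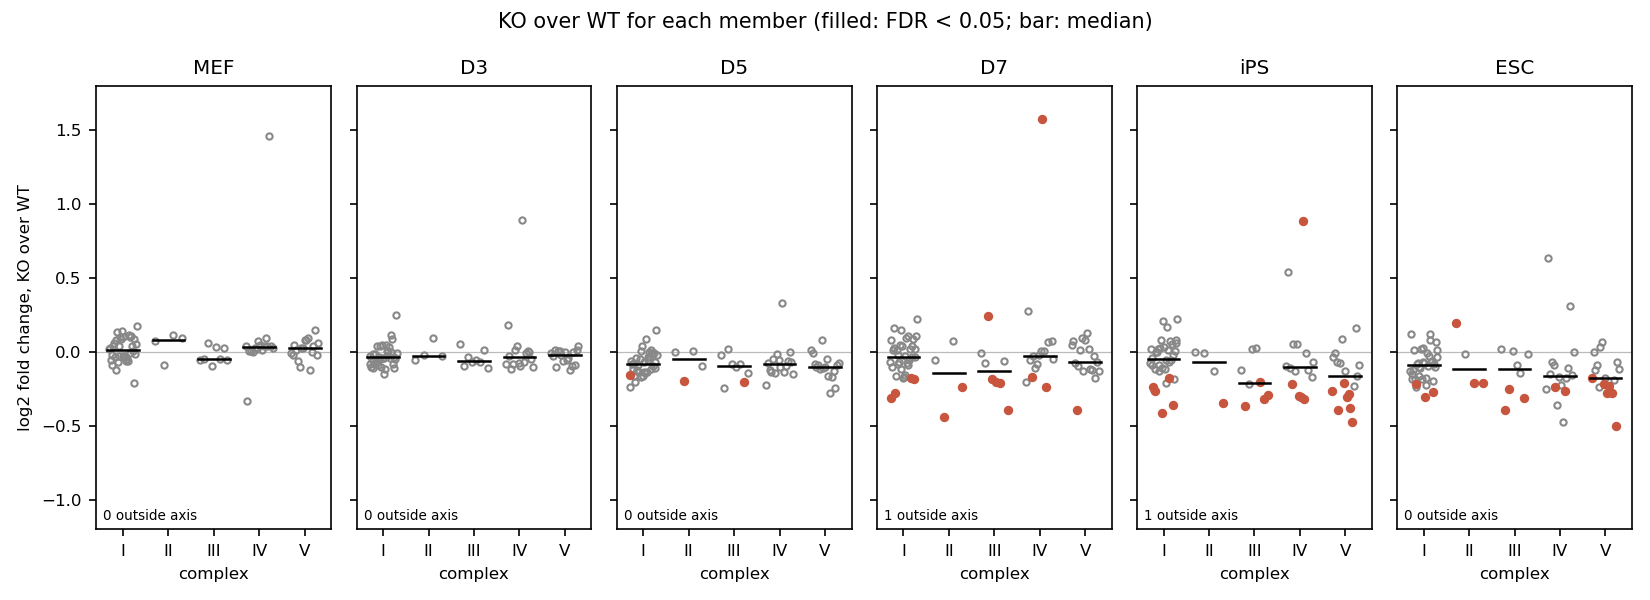
Log2 fold change of KO against WT (y axis) for each member, by complex, in the 6 stages (panels), with members past FDR < 0.05 marked. Cox7b2, which had no more than 4 reads in any D7 library, lies outside the axis at D7 and in iPS cells. Most points lie near 0 in MEF and D3, and the called members of iPS and ESC lie mostly below 0.

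Whether the KO effect differed between stages was tested directly. For D7 against D3, 0 members had a higher and 3 a lower KO effect at D7 by DESeq2, beside 5.82% and 7.19% of all genes, with 11 at an unadjusted p under 0.05 and 0 and 2 by edgeR. They were Sdhb (difference of log2FC -0.42 ± 0.091 (SE), FDR 2.20e-04), Atp5d (-0.29, FDR 0.0189) and Ndufa10 (-0.28, FDR 4.94e-04). At D3 the KO effects of these genes were -0.023, -0.10 and -0.027. For iPS clones against ESCs, 2 members had a higher and 0 a lower effect in iPS, beside 0.924% and 0.547%, with 3 at an unadjusted p under 0.05 and 0 and 0 by edgeR. They were Cox7a1, with a KO effect of 0.89 in iPS and -0.48 in ESCs (difference 1.36 ± 0.33 (SE), FDR 0.00885), and Atp5mpl, with 0.16 and -0.50 (difference 0.66, FDR 0.00595).

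Other genes of the pathway followed lists of their own. The 13 protein genes of the mitochondrial genome, which supply the core of complexes I, III, IV and V, had 0 higher and 0 lower in every KO comparison by DESeq2, with 0 to 11 (the highest at D3) at an unadjusted p under 0.05 and 0 calls by edgeR. The counts were 1 and 1 from MEF to D3, 0 and 2 from D7 to iPS and 0 and 3 from MEF to ESC. At D3 the median of these genes in KO against WT was -0.67, with a wide spread in WT: mt-Nd1 was at 38632 ± 27623 in WT and 26296 ± 3482 in KO. Of 47 assembly factors, which build the complexes, 30 rose and 9 fell from MEF to D3, 9 rose and 22 fell from D7 to iPS, and 0 were higher and 13 lower in D7 KO. Of 77 mitochondrial ribosomal protein genes, 65 rose and 5 fell from MEF to D3 with a median of 0.91, beside 0.080 for the members. In the KO, 6 of them were higher and 27 lower at D7, 3 and 20 in iPS clones and 1 and 12 in ESCs. Of all genes tested, 33.8% rose and 37.1% fell from MEF to D3, and 35.8% and 37.7% from D7 to iPS. The all-gene shares higher and lower in the KO were 13.3% and 16.1% at D7, 9.72% and 6.63% in iPS clones and 5.82% and 4.29% in ESCs.

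Of the mobile carriers, Cycs, the somatic cytochrome c, was at 2325 ± 64.2 normalised counts in MEF WT and 7084 ± 267 at D3 (log2FC 1.61, FDR 2.28e-71) and was lower in the KO at D7 (-0.29, FDR 0.00638), in iPS clones (-0.38, FDR 5.67e-04) and in ESCs (-0.29, FDR 0.0209). Cyct, the testis form, was at 0.674 ± 0.583 in D7 WT and 38 ± 0.0781 in iPS WT. Ndufa4l2, the relative of Ndufa4 known to be induced by hypoxia, was higher in the KO at D7 (1.29, FDR 1.32e-04) and in iPS clones (1.06, FDR 5.21e-04), where Ndufa4 was lower. Among 14 regulators of mitochondrial genes, 4 were higher in D7 KO, namely Nrf1 (0.38), Gabpa (0.24), Tfam (0.22) and Esrrb (1.12), and 4 lower, namely Esrra (-0.66), Ppargc1b (-0.60), Tfb2m (-0.32) and Esrrg (-1.91). Esrra, an orphan nuclear receptor that drives respiratory genes with Ppargc1b, rose from MEF to D3 (0.80, FDR 7.21e-11) and fell from D7 to iPS (-1.61, FDR 4.74e-39). Esrrb also belongs to the pluripotency markers.

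Promoter windows of 300 bases (250 before and 50 after the RefSeq start, GRCm38.p6) were found for 67 of 81 members, in 72 windows. The observed over expected CpG ratio had a median of 0.801, beside 0.384 for all 32851 windows, and 60 of 72 reached 0.6, beside 35.8% of all. Cox7a1 had the lowest ratio of the members over the 300 bases (0.333). The motif GCGCATGCG of NRF1, searched on both strands, was in 8 member windows (11.1%) and 1.75% of all, AAGATGGC of YY1 in 10 (13.9% beside 2.75%) and CCGGAAGT of the ETS factors such as GABPA in 5 (6.94% beside 3.89%). The windows were not matched for CpG density, and the NRF1 and ETS letters hold CpG, whereas those of YY1 do not. The part of CpG density in these shares was not tested. The window of Uqcr11, a small subunit of complex III that was lower in KO iPS clones and KO ESCs (-0.37 and -0.39), is shown because it holds both an ETS and an NRF1 match. Its 250 bases before the start (chr10:80406822-80407071, minus strand) have the ETS match in capitals and, at the right end, the first bases of the NRF1 match, which runs past the start:
Uqcr11: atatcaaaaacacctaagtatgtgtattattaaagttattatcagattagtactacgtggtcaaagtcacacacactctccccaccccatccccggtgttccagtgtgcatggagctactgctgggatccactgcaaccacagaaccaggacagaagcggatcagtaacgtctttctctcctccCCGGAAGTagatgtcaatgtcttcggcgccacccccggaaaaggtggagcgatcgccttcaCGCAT
Such a match is a description of the letters and not of binding.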

How the data were processed

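Libraries were made with a stranded poly(A) kit (NEB Ultra II) and read as single 75-base reads. The authors trimmed reads with Cutadapt, mapped them with STAR (GRCm38) and counted them per gene with Rsubread; the strand setting and annotation release are not given in the sources used here. The deposited count table holds raw counts per gene, and the deposited normalised signal table holds the counts divided by a size factor per library. The authors' fold changes and p-values of the KO comparisons were not used, apart from the pairing of gene identifiers with names in 1 of those files, and neither was their batch-corrected log matrix. Groups came from the sample titles. Raw counts of all 36 libraries were fitted with DESeq2 1.42.0 in R 4.3.3, with 1 factor of 12 levels as in the study's methods. Benjamini-Hochberg FDR was taken over all genes, and a gene was called at FDR < 0.05; log2FC is unshrunken. Alternatives were edgeR 4.0.16 (quasi-likelihood, TMM), TMM size factors, a filter of 10 counts in 3 libraries, the compared groups alone, a replicate block and leaving out each library. The fit was tested on simulated data. Floors and reads cover counting error only. Positions and transcript lengths came from GENCODE (GRCm38). Named were core subunits and isoforms, members past a log2FC of 1 or with the 5 lowest FDR without overlap in KO comparisons, and the 5 largest rises and falls per WT step. The values of 1 member are not reported here, and it is counted in the totals. Members, gene lists and tests were chosen with earlier results of these data known.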

Additional observations from a re-analysis of the deposited data

Results flagged for a closer look

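For 5 members the effect of the KO differed between 2 stages by a test of the difference itself. Between D7 and D3 the difference of log2FC was -0.42 for Sdhb, -0.29 for Atp5d and -0.28 for Ndufa10, each with a lower level in KO at D7 and no call at D3. The differences of Sdhb and Ndufa10 passed in all 5 alternatives and all 12 fits that left out a library, whereas that of Atp5d was lost with edgeR and in 6 of those 12. Between iPS clones and ESCs the difference was 1.36 for Cox7a1, higher in KO in iPS clones and with a log2FC of -0.48 in ESCs that did not pass, and 0.66 for Atp5mpl, lower in KO in ESCs and at 0.16 in iPS clones. Cox7a1 lost the call with edgeR and in 3 of 12 fits without a library, and Atp5mpl with edgeR and with only the compared groups. The causes were not tested.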

How the results depend on the processing

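Of the 28 member counts (2 directions in 14 comparisons), those not named here stayed within 1.5 times under every alternative, and no value changed sign. With edgeR, 0 members were lower in D5 KO, 2 higher in iPS KO, 5 lower in ESC KO, 0 lower at D5 against D3, and 0 had a higher KO effect in iPS than in ESC. With TMM size factors 0 were lower at D5 against D3 and 1 higher in ESC than iPS. With only the compared groups, 1 was higher in D3 KO, 0 higher and 0 lower in iPS KO, 0 lower at D5 against D3, 2 higher and 5 lower in the D7 against D3 difference, and 1 higher in the iPS against ESC difference. The filter on low counts moved no count. With the replicate block, 1 member was higher in ESC than iPS, and no other count moved by over 1.5 times. Same-numbered libraries deviated together with r of -0.12 to 0.287, and 7 of 18 pairs were over 0.1. Of the 18 libraries, 9 correlated best with their own number. These included all libraries of D5 and D7 (r of 0.0593 to 0.230) and D3 1 and 3 (0.287 and 0.145), whereas in MEFs and ESCs the best match always had another number. Whether the numbers pair the samples at D3 to D7 is not settled by these values, and the main fit treated the libraries as unpaired. Leaving out each library in turn gave 0 to 1 higher in D3 KO, 0 to 2 lower in D5 KO, 1 to 3 higher in D7 KO, 0 to 4 higher and 8 to 28 lower in iPS KO, 1 to 2 higher and 3 to 20 lower in ESC KO, 0 to 2 lower at D5 against D3, 1 to 2 higher at D7 against D5, 0 to 8 higher in ESC than iPS, and 1 to 2 higher and 0 to 2 lower in the iPS against ESC difference. The libraries whose omission moved a count by over 1.5 times were D3 KO 1 (D3 KO, 1 higher), D5 WT 2 and 3 and D5 KO 1, 2 and 3 (D5 KO, 0 or 1 lower), D7 WT 3 and D7 KO 2 (D7 KO, 1 higher), iPS WT 3 and iPS KO 1, 2 and 3 (iPS KO, 4, 0, 2 and 2 higher), iPS WT 2 (iPS KO, 8 lower), ESC WT 3 and ESC KO 3 (ESC KO, 2 higher), ESC WT 1 and 2 and ESC KO 2 and 3 (ESC KO, 4, 3, 4 and 6 lower), iPS WT 2 and 3 and ESC WT 3 (ESC against iPS, 5, 8 and 4 higher), D3 WT 1, 2 and 3 and D5 WT 1 and 3 (D5 against D3, 2 or 0 lower), D5 WT 2 (D7 against D5, 2 higher), and, for the difference between iPS and ESC, iPS WT 2, iPS KO 1 and ESC WT 1 (1 higher) and iPS WT 1 (2 lower). The causes were not tested. Depth limits Cox7a1, Cox7b2 and Cox4i2 before the pluripotent stages, where they had few or no reads.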
